A study of Mus musculus with 25 samples.

Results

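The microRNA precursor mir-335 was followed in mouse blood from young adulthood to old age. It is 1 row of 1193 in a table of raw counts per precursor (the hairpin from which the mature microRNA is cut), read over all 25 libraries. The libraries came from the blood of male C57BL/6 mice, a common inbred strain, at 2, 9, 15, 24 and 30 months of age, with 5 separately numbered samples at each age. The labels do not say in words that each sample is its own animal, so p-values measure the spread between these samples. No treatment or allele is named in the labels, so the groups differ by age alone as far as these state it, and the 2-month animals are the young reference. mir-335 was chosen by its own counts in these libraries, with its higher level in old blood already known. Its levels and changes are therefore given as a description with their spread, and no test of age is given for it.

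A microRNA is a short RNA that guides Argonaute proteins to messenger RNAs carrying a match to its seed, bases 2 to 8 counted from the 5′ end, and lowers their output. mir-335 lies inside Mest, also called Peg1, a gene imprinted in mouse and human, in which the copy inherited from the father is the active one during development and mesodermal tissues are a main site of expression. In other settings mir-335 is known for work on breast cancer metastasis, on mesenchymal stem cells and on senescence of kidney cells. It is not among the microRNAs usually used to mark a blood cell type. Messenger RNA of Mest was not analysed here.

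The RefSeq sequences of mir-335 (mouse assembly GRCm38.p6) are shown because the count table holds 1 value for the hairpin and so cannot tell which arm the reads came from. The 5p and 3p arms are printed with the seed in capitals, and the hairpin with both mature arms in capitals.
mmu-miR-335-5p: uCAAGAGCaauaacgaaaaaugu
mmu-miR-335-3p: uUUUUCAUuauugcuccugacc
mmu-mir-335 hairpin: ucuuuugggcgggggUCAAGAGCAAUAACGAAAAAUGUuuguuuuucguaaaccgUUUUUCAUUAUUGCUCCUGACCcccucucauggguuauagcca

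The hairpin is 98 bases long, with the 23 bases of the 5p arm at positions 16 to 38 and the 22 bases of the 3p arm at positions 56 to 77. The longest run in which the mature arms can pair by Watson-Crick rules is 9 bases, from base 5 to base 13 of the 5p arm. Both arms are rich in A and U, with 16 of 23 bases in the 5p arm and 14 of 22 in the 3p arm. Among the 1679 mature mouse microRNAs in the RefSeq table, no other precursor carried either seed. No other row of the count table therefore stands for a seed relative of mir-335 in that table.

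The hairpin was placed on chromosome 6 of GRCm38, from 30741299 to 30741396 on the plus strand, in RefSeq and in GENCODE vM21 alike. Mest runs on the same strand from 30723547 to 30748465. Of its 11 annotated transcript models 7 extend across the hairpin, and in all 7 it is intronic. The intron runs from 30740825 to 30742140 and has 1316 bases, with 474 bases before the hairpin and 744 after it. These are positions in GRCm38. The build behind the counts was not given in the sources used here.

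Library totals ranged from 4.884 to 24.25 M counts with a median of 15.39 M. The 30-month libraries were the shallowest group, with 9.888 ± 2.71 M against 18.84 ± 2.81 M in the 2-month group. Here and below, ± is the SD over the n = 5 libraries of an age unless another n is given. The expression filter left 855 precursors untested and kept mir-335. No same-age pair of libraries matched within sampling noise. The smallest libraries were 24 months replicate 4 (4.884 M) and 30 months replicate 3 (5.747 M). The levels and changes of mir-335, mir-182 and mir-183 are given with and without them below. As a check of the labelled tissue, mir-486a of red cells led the erythroid list and mir-142a of white cells the myeloid one, both with counts in every library.

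mir-335 was a moderately scarce precursor whose level about doubled over adult life, with most of the gain after 15 months. It collected 2978 counts over all libraries, the fewest, 38, in 24 months replicate 4, and 97.6 per library on average at 2 months. Values below are counts-per-million (CPM) values on library sizes scaled by trimmed means of M-values (TMM).

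At 2 months, mir-335 stood at 5.32, 7.86, 4.71, 6.27 and 5.21 CPM in replicates 1 to 5. Replicate 2 was the high library of this age. At 9 months, the values were 4.25, 5.71, 9.00, 6.28 and 7.88 CPM. This age held both the lowest single value of the series, in replicate 1, and a value above every 2-month library, in replicate 3.

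At 15 months, the libraries read 4.43, 6.39, 7.62, 7.35 and 8.07 CPM, so that replicate 1 lay apart at the low end while the other 4 were close together. At 24 months, the values were 10.7, 8.71, 8.12, 6.68 and 9.83 CPM. All except replicate 4, the smallest library, exceeded the highest 2-month library. At 30 months, they were 12.3, 16.8, 7.79, 13.01 and 11.5 CPM. Again 4 of 5 lay above every 2-month library, and the low one was replicate 3, the second smallest library of the series. Within ages, mir-335 and library total, both as log2, correlated at 0.27 (Pearson) and 0.09 (Spearman) over the 25 libraries. Any part of depth in the low values was not tested.

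The means were 5.87 ± 1.25 CPM at 2 months, 6.62 ± 1.86 at 9 months, 6.77 ± 1.45 at 15 months, 8.81 ± 1.56 at 24 months and 12.3 ± 3.21 at 30 months. The 30-month mean was 2.09 times the 2-month mean, while the 24-month mean was 150.1% of it and the 15-month mean 115.3%. Without its smallest library the 24-month mean was 9.35 ± 1.16 CPM, and without its own the 30-month mean was 13.4 ± 2.32 CPM (SD, n = 4 each). Each of these libraries was the lowest of its age, so its removal could only raise the mean. By mean level mir-335 ranked 167 among the tested precursors at 2 months and 148 at 30 months, near the middle of the range at each age.

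**Figure D1:**
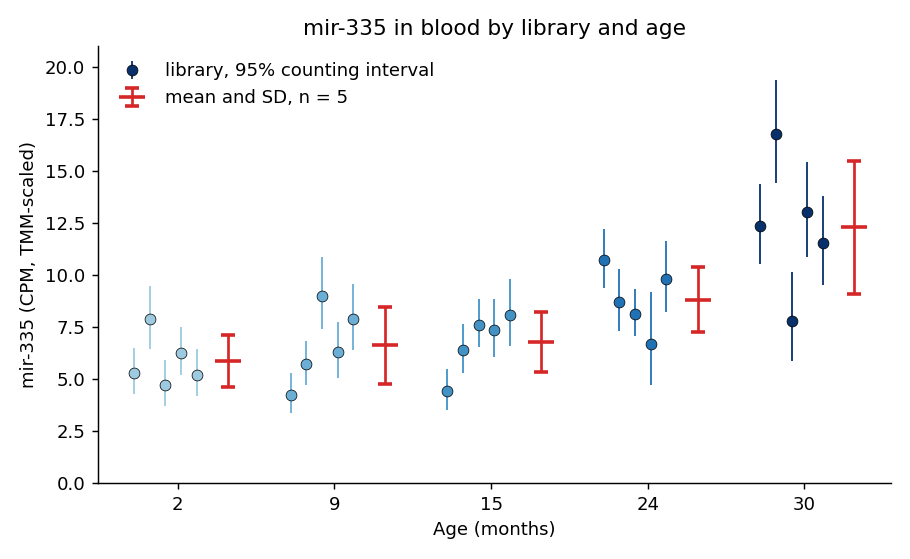
mir-335 in CPM (vertical axis, TMM-scaled) by age in months, with each library as a point with its 95% Poisson counting interval, and the mean and SD of the 5 libraries in red. The means stand at 5.87, 6.62, 6.77, 8.81 and 12.3 CPM, and 1 library of 30 months, at 7.79 CPM, lies within the 2-month range.

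The spread between libraries of an age was wider than read counting alone gives. The coefficient of variation was 21.3% at 2 months, 28.1% at 9 months, 21.4% at 15 months, 17.7% at 24 months and 26.2% at 30 months, where counting error alone would give 9.48% to 10.3%. The lowest library of 30 months, at 7.79 CPM, had a 95% Poisson interval from 5.87 to 10.1 CPM. The highest, at 16.8 CPM, had one from 14.4 to 19.4 CPM. These 2 old libraries thus differed beyond counting error, which is all that such intervals cover, since the kit used adds no molecular identifiers.

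Ordered by level, the ages followed one another from 2 to 30 months, but every pair of neighbours in that order overlapped. In a quasi-likelihood fit of edgeR over all 25 libraries, the log2 change was 0.17 (SE 0.21) from 2 to 9 months and 0.04 (SE 0.21) from 9 to 15 months. Both are below the spread of single libraries about their age mean, an SD of 0.34 log2 units. The step from 15 to 24 months was 0.39 (SE 0.21) and that from 24 to 30 months 0.47 (SE 0.21), each larger than that SD. The SD describes single libraries, and the error of a step is its SE. In 24 against 15 months, as in 30 against 24 months, 4 of 5 older libraries exceeded the highest younger one, and both pairs of groups overlapped. Over all tested precursors, 1.78% and 0.888% had older libraries wholly above the younger ones in these steps.

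Against 2 months, the fitted log2 changes of mir-335 were 0.17 (SE 0.21) at 9 months, 0.20 (SE 0.21) at 15 months, 0.60 (SE 0.21) at 24 months and 1.07 (SE 0.21) at 30 months. A straight line through all ages gave 0.36 log2 units per 10 months (SE 0.07), or 0.45 (SE 0.09) when the 2-month libraries were left out. These 4 changes share the same 2-month libraries. At 9 months 2 of 5 libraries and at 15 months 1 of 5 exceeded the highest 2-month library. Wholly higher groups made up 1.78% and 0.888% of all tested precursors at those ages. In the 30 against 2 months comparison all 5 old libraries lay above the 2-month mean, and 4 of the young ones lay below the lowest old one. The groups overlapped. Over all tested precursors, 5.62% had 30-month libraries wholly above the 2-month ones, and 5.03% had 24-month libraries so. The change at 30 months ranked 8 from the top of all tested precursors, and that at 24 months ranked 37. The medians over all of them were −0.04 and −0.0037. Without the 2 smallest libraries the changes at 24 and 30 months were 0.69 (SE 0.20) and 1.23 (SE 0.20). This setting was not planned. Both libraries are old ones with the lowest mir-335 of their age, so leaving them out could only raise these changes.

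The way libraries are scaled mattered more at 24 months than at 30. With plain library totals the change was 0.96 (SE 0.20) at 24 months and 1.296 (SE 0.20) at 30 months. In that scaling the median of all precursors at 30 months stood at 0.20 in place of −0.04. Red cell microRNAs fill most of a blood library, so mir-335 was also scaled to the counts outside the erythroid list, again as CPM. On that scale its level went from 23.2 ± 7.03 at 2 months to 36.7 ± 7.60 at 24 months and 52.3 ± 17.6 at 30 months. The log2 change at 30 months was then 1.18 (SE 0.25). When every library was thinned to 4.884 M counts, the change at 30 months was 1.08 (SE 0.25), with 17 to 33 counts of mir-335 per 2-month library and 48 to 77 per 30-month library. At that equal depth the change at 24 months was 0.81 (SE 0.25).

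**Figure D2:**
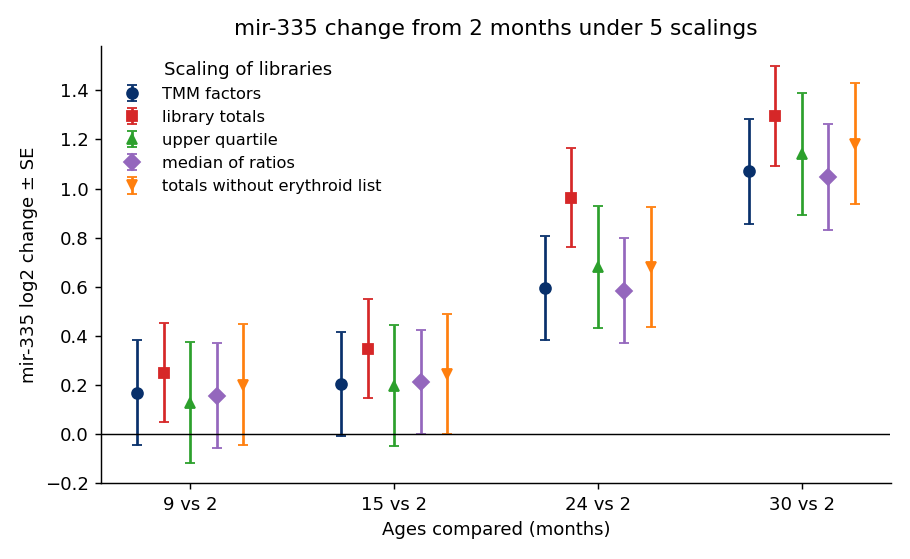
Fitted log2 change of mir-335 against 2 months (vertical axis, with SE) at each later age, under 5 ways of scaling the libraries, shown by marker shape and colour. The changes at 30 months run from 1.05 with median-of-ratios factors to 1.296 with library totals, all from fits of the same 25 libraries.

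The column names record the sequencing lane, and in some lanes the libraries of mir-335 lay on 1 side of their age means, a pattern that did not pass a test over all precursors. In lane 5, 5 of 5 libraries lay above the mean of their age, by 0.12 to 0.48 log2 units, and in lane 7 all 4 did, by 0.12 to 0.49. In lane 3, 3 of 3 lay below it, by amounts between −0.05 and −0.58, and 3 of 4 did in each of lanes 4 and 8. Lane 6 held 2 libraries above and 3 below. Lane terms took up 61.7% of the sum of squares of mir-335 about its age means, where the median over all tested precursors was 24.5%.

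This pattern was examined after it was seen, in a fit with age and lane. The 5 lane terms had an unadjusted p = 0.00912 for mir-335 but an adjusted p = 0.257 by edgeR's quasi-likelihood test, so it did not pass. Of all tested precursors 8, or 2.37%, did. With lane in the fit, the change of mir-335 at 30 months was 1.02 (SE 0.17) and that at 24 months 0.66 (SE 0.17), with a smaller error than without lane. Inside each of the 5 lanes that hold 2-month and older libraries, the mean of the 24- and 30-month libraries was above the 2-month library. The differences were 0.32 log2 units in lane 4, 0.52 in lane 5, 1.32 in lane 6, 1.08 in lane 7 and 0.65 in lane 8, each with 1 young library and 1 or 2 old ones. The old library of lane 4 was 24 months replicate 4, the smallest of the series. No 30-month library was run in lane 3 or lane 4, so age and lane were not balanced. Lane 3 held no 2-month library, and its 24-month library was 0.63 above the mean of its 9- and 15-month ones.

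**Figure D3:**
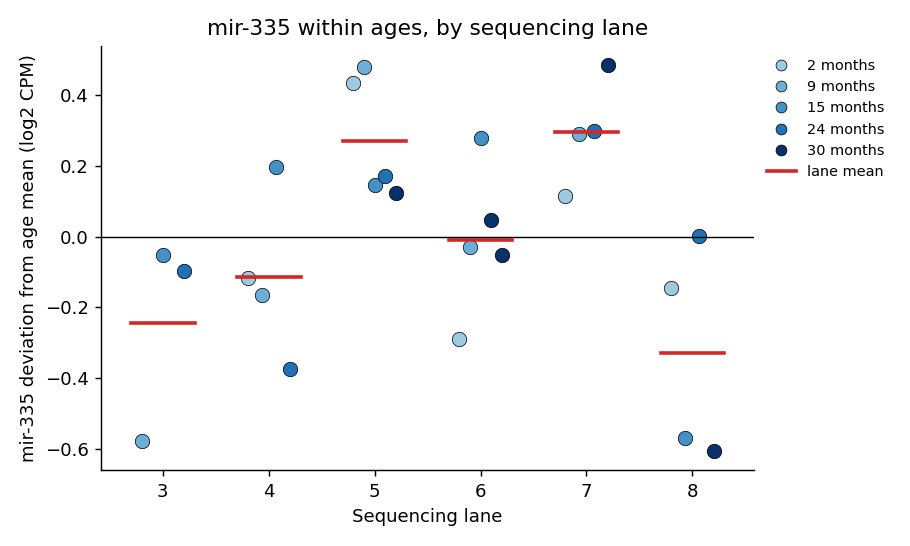
Deviation of mir-335 from the mean of its age (log2 CPM, vertical axis) for each of the 25 libraries by sequencing lane, coloured by age, with the lane mean in red. Lanes 5 and 7 lie wholly above 0 and lane 3 wholly below it, and lane 8 holds the lowest value, −0.61, in 30 months replicate 3.

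Blood is a mixture of cells, and here fewer cells of a type and less RNA per cell cannot be told apart. Marker microRNAs of the blood lineages and of tissues that could leak into blood were therefore set beside mir-335. The cell type and other lists were drawn up with earlier results of these data known. For 30 against 2 months, 14.2% of all tested precursors passed the edgeR test in either direction, 9.17% upward and 5.03% downward.

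Of the white cell markers, 4 of 7 tested myeloid members rose, with a median log2 change of 0.90 over the list. They were led by mir-223 of neutrophils and monocytes, whose level went up by 1.44 log2 units (SE 0.17) with an edgeR adjusted p = 1.65e-06. The others called, mir-23a, mir-27a and mir-24-2, lie together in a cluster on chromosome 8. DESeq2 called 5 of the 7 and limma-voom 3. mir-142a, found in most white cells, shifted by 0.16 (SE 0.19), with an adjusted p = 0.656. The summed level of the myeloid list ran from 6963 to 8458 CPM at 2 months and from 8049 to 9798 CPM at 30 months. Most of this sum was mir-142a, at means of 7500 and 8371 CPM, while mir-223 averaged 58.2 and 158 CPM. Of the 8 lymphoid members 0 passed by the same test, 3 had an unadjusted p under 0.05, and DESeq2 called 1 and limma-voom 0. Their summed level ran from 1627 to 2248 CPM and from 1254 to 2082 CPM. Of the erythroid members 1 of 5 fell, mir-144, and the most abundant, mir-486a, shifted by −0.30 (SE 0.18), with an adjusted p = 0.284. Its reads may be shared with mir-486b. The part of any of these lists in the level of mir-335 was not tested.

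At most 1 member of each tissue list was called higher at 30 months. Mesenchymal members, of interest because Mest is expressed in that lineage, had 1 of 5 tested members called at 30 months, mir-199a-1, which fell, with a median log2 change of −0.94. Their summed level ran from 43.7 to 75.4 CPM at 2 months and from 27.6 to 51.7 CPM at 30 months. The leading members mir-143 and mir-145a of smooth muscle and stroma shifted by −0.44 (SE 0.23) and −0.94 (SE 0.40), with adjusted p-values of 0.221 and 0.132. 1 of the 7 mesenchymal rows had no count in any library. Of the platelet and endothelial list 1 of 5 rose, mir-222, and 2 fell, mir-126a and mir-126b, which overlap on opposite strands. Of the epithelial list 1 of 5 rose, mir-203, and 1 fell, mir-205. Of the 3 tested muscle and the 3 tested liver members 0 passed by edgeR's test, DESeq2 or limma-voom, with unadjusted p-values under 0.05 for 3 and 1 of them. Muscle members had a median log2 change of −1.69 and liver members one of 0.0074. The summed level of the liver list ran from 3174 to 4313 CPM at 2 months and from 3979 to 6067 CPM at 30 months. Most of that sum was mir-192, at means of 3553 and 4998 CPM. mir-122 of the same list had 131 counts in all and was not tested, so the sum does not include it. mir-192 was higher by 0.49 log2 units (SE 0.17), with an edgeR adjusted p = 0.0581. The part of these tissues in the level of mir-335 was not tested.

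On chromosome 6 the table holds 6 other precursors within 2 Mb of mir-335, of which mir-182, mir-183, mir-29a and mir-29b-1 passed the expression filter. mir-96 and mir-129-1 had 28 and 20 counts in all and were not tested. The tested pair upstream was higher in old blood, and the tested pair downstream was not called different.

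mir-182 and mir-183 belong to 1 cluster, known from sensory organs and from dividing lymphocytes, and start 575 and 572 kb before mir-335. mir-182 went from 40.2 ± 2.67 CPM at 2 months to 108 ± 59.1 CPM at 30 months. Its 30-month libraries read 77.6, 114, 207, 59.4 and 80.2 CPM, all above the 2-month range of 37.8 to 43.2 CPM, a rise of 1.42 log2 units (SE 0.32) with an edgeR adjusted p = 0.00652. mir-183, at 2.88 ± 0.304 and 5.12 ± 2.53 CPM, rose by 0.80 (SE 0.24) with an adjusted p = 0.0285. This call ended without 30 months replicate 3, at 0.52 with an adjusted p = 0.0750. It also ended after thinning (adjusted p = 0.0940), with no filter (0.0688) and with only the 10 libraries compared (0.0565).

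Although both rose with mir-335 over the ages, within ages they did not go with it. The correlation of deviations from the age means over the 25 libraries, which share lanes and scaling, was −0.27 between mir-335 and mir-182 and −0.44 between mir-335 and mir-183. With lane removed as well as age, these values were −0.085 and −0.43. In 30 months replicate 3, mir-182 at 207 CPM and mir-183 at 9.64 CPM were the highest of their age while mir-335 was the lowest. The same held in 24 months replicate 4, with mir-182 at 162 CPM and mir-183 at 6.51 CPM. Without these 2 smallest libraries the change of mir-182 at 30 months was 1.09 (SE 0.22) and that of mir-183 0.52 (SE 0.15), both called by edgeR.

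mir-29a and mir-29b-1, microRNAs known for targeting collagen messenger RNAs, start 321 and 322 kb after mir-335. mir-29a averaged 614 ± 48.0 CPM in the young group and 685 ± 73.3 CPM in the 30-month group, higher by 0.16 log2 units (SE 0.11) with an adjusted p = 0.376. mir-29b-1, whose mature sequence may be shared with a second copy, averaged 4.90 ± 1.33 and 4.94 ± 2.02 CPM, apart by 0.010 log2 units (SE 0.34) with an edgeR adjusted p = 0.993. The sign of this near-zero value turned with several settings, median-of-ratios factors and the lane term among them. Its old and young libraries overlapped widely, from 2.03 to 7.35 CPM at 30 months and from 2.91 to 6.36 CPM at 2 months.

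**Figure D4:**
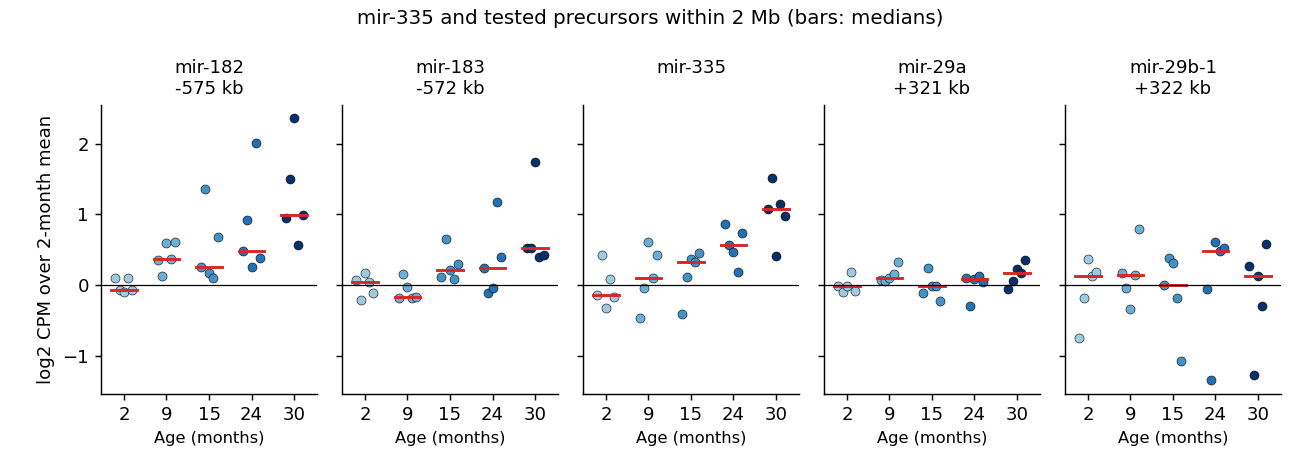
log2 CPM relative to the 2-month mean (vertical axis) by age in months for mir-335 and the 4 tested precursors within 2 Mb of it, ordered along the chromosome, with 5 libraries per age as points and medians in red. The upstream pair shows 2 libraries far above the rest, 24 months replicate 4 and 30 months replicate 3, in which mir-335 is the lowest of its age.

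Mest is an imprinted gene, so mir-335 was set beside the precursors of other imprinted regions. Of 132 such rows 28 passed the expression filter, and 3 of them, or 10.7%, were called at 30 against 2 months, 1 higher and 2 lower, where 14.2% of all tested precursors were called. For the linear trend with age 4 of the 28 were called, 2 higher and 2 lower, where 19.8% of all precursors were called, 10.7% upward and 9.17% downward. The median log2 change of the 28 was 0.02, against −0.04 over all precursors and 1.07 for mir-335.

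The regions differed in direction. Both members from the Gnas region on chromosome 2 fell. mir-296 stood at 96.6 ± 11.9 CPM in the young and 6.43 ± 0.633 CPM in the oldest group, −3.91 on the log2 scale (SE 0.27), with an edgeR adjusted p = 6.49e-11. mir-298 stood at 7.69 ± 0.884 and 1.32 ± 1.40 CPM, −2.67 on the log2 scale (SE 0.36), with an adjusted p = 7.36e-06. Without 30 months replicate 3, whose 3.83 CPM was the highest of its age, the value for mir-298 was −3.40 (SE 0.27). mir-296 was already at 19.1 ± 4.68 CPM at 9 months, an age at which the mean of mir-335, 6.62 CPM, lay within 1 SD of its 2-month mean. Most of the change of mir-296 therefore came before 9 months and most of that of mir-335 after 15 months.

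The maternally expressed microRNA cluster of the Dlk1-Dio3 region on chromosome 12 had 9 tested members of 57. Of these 0 passed edgeR's test in either direction at 30 months, nor by DESeq2 or limma-voom, and 0 had an unadjusted p under 0.05. Their log2 changes ran from −0.62 to −0.06. Its most abundant member, mir-127, averaged 22.5 ± 4.03 CPM in the young and 19.4 ± 6.78 CPM in the oldest group. Its difference was −0.22 log2 units (SE 0.21), with an adjusted p = 0.568, and 0.011 with library totals. mir-434 of the same cluster, close to mir-335 in level at 6.46 ± 0.683 CPM at 2 months, averaged 5.57 ± 1.27 CPM at 30 months, where mir-335 had 12.3 CPM. Its difference was −0.22 log2 units (SE 0.20), with an adjusted p = 0.533. In the fit with age and lane, mir-127, mir-434 and mir-410 of this cluster were called for lane. Their edgeR adjusted p-values for lane were 0.0142, 0.0193 and 0.0193, and 2.37% of all tested precursors were so called.

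Among the hairpins inside Sfmbt2, a repeat-like cluster on chromosome 2, 17 of 71 were tested and 1 was called at 30 months. This was mir-467d, which rose from 3.22 ± 1.15 CPM in the young to 5.81 ± 2.21 CPM in the oldest group, by 0.84 log2 units (SE 0.27) with an edgeR adjusted p = 0.0399. Its reads may be shared with its close relatives, and the call ended without 2 months replicate 2 or 30 months replicate 5, with values of 0.73 and 0.66 and adjusted p-values of 0.0609 and 0.0986. It also ended after thinning, at 0.59 with an adjusted p = 0.201, with no filter (0.0688) and with only the 10 libraries compared (0.0824). For the trend mir-467a-1, at under 1 CPM at each age, was called as well. The 2 rows of the H19-Igf2 region, mir-675 and mir-483, did not pass the expression filter.

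**Figure D5:**
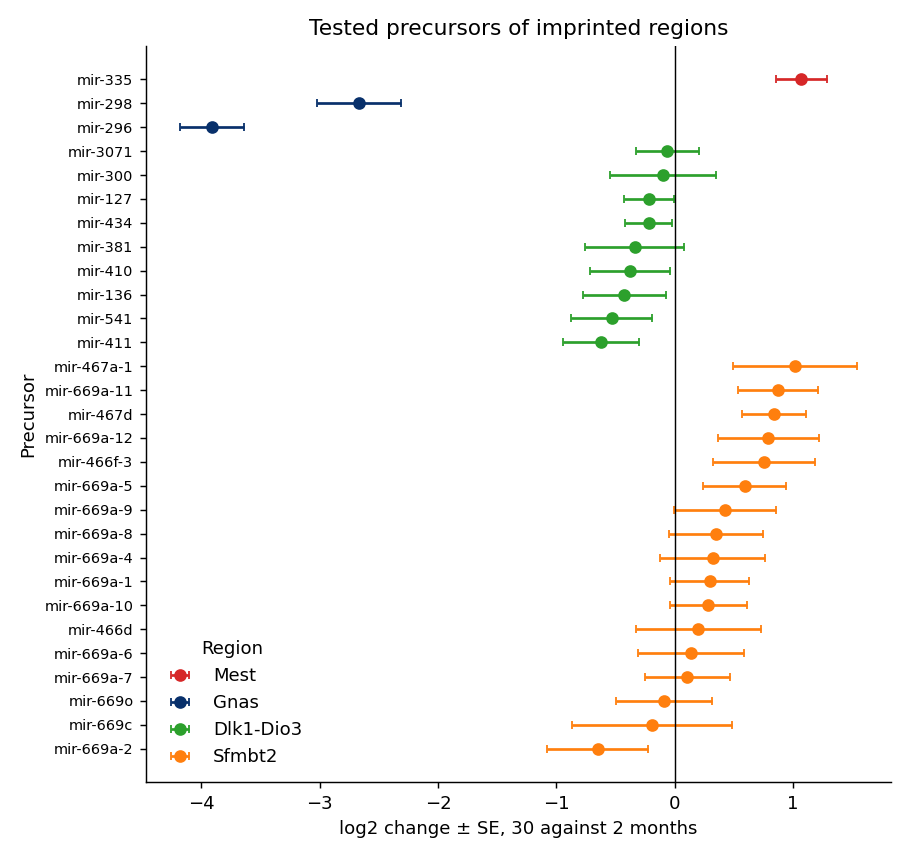
Fitted log2 change at 30 against 2 months (horizontal axis, with SE) for mir-335 and the 28 other tested precursors of imprinted regions, coloured by region. mir-335 at 1.07 lies at the upper end, next to mir-467a-1 of Sfmbt2 at 1.01 (SE 0.52). The 2 Gnas members lie below −2, and the 9 Dlk1-Dio3 members lie between −0.62 and −0.06. The 17 Sfmbt2 members run from −0.65 to 1.01.

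mir-335 has been studied in cell senescence, so a list of other microRNAs named in that field was examined. Of its 8 tested members 1 rose at 30 months, mir-146b, a regulator of inflammatory signalling, by 0.70 log2 units (SE 0.22) with an edgeR adjusted p = 0.0370. That is 12.5% of the list, where 14.2% of all tested precursors were called. mir-146a had the largest change, 1.15 (SE 0.40), with an adjusted p = 0.0519, and DESeq2 called 2 members and limma-voom 1. For the trend 2 of the 8 were called, mir-146a (adjusted p = 0.0305) and mir-146b, where 19.8% of all precursors were. The median log2 change of the list was 0.10. mir-34a, the best known of them and a target of p53, was scarcer than mir-335, with 1.44 ± 0.948 CPM in the young and 1.83 ± 0.840 CPM in the oldest group. Its difference of 0.32 log2 units (SE 0.45) did not pass, at an adjusted p = 0.704.

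The precursors whose log2 CPM went most closely with mir-335 over the 25 libraries were mir-99b (Pearson correlation 0.78, Spearman 0.84), mir-223 (0.78 and 0.80), mir-203 (0.76 and 0.75), mir-3074-2 (0.73 and 0.80) and mir-24-2 (0.73 and 0.80). The last pair overlaps on opposite strands and cannot be told apart without strand. The median over all other tested precursors was −0.02. The libraries share their ages, so precursors that differ with age score high on this measure. At 30 months mir-203, an epithelial microRNA, rose by 1.66 (SE 0.15) and mir-24-2, of a cluster with mir-23a and mir-27a, by 0.43 (SE 0.10), both called by edgeR. The call of mir-24-2 ended with no filter on low counts (adjusted p = 0.242).

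Once the mean of each age was removed, the order changed. The closest were then mir-331 (Pearson correlation 0.75), mir-99b (0.74), mir-700 (0.73), mir-467a-1 (0.72) and mir-1191b (0.70) over the same 25 libraries, while mir-203 stood at 0.32. mir-467a-1, at 0.388 CPM on average, rests on few counts. mir-331 was not called with age, at 59.6 ± 12.1 CPM in the young and 63.6 ± 18.8 CPM in the oldest group, and neither was mir-700, at 12.8 ± 3.19 and 16.5 ± 4.61 CPM. mir-99b, of the cluster with let-7e and mir-125a, was close on both measures, at 33.5 ± 6.31 CPM at 2 months and 64.6 ± 22.9 CPM at 30 months. Its rise of 0.95 log2 units (SE 0.28) was called by edgeR, and the call ended with lane in the fit, with no filter and without 2 months replicate 3. With lane removed as well as age, the values were 0.81 for mir-700, 0.80 for mir-339, 0.78 for mir-331, 0.73 for mir-1191b, 0.70 for mir-99b and 0.48 for mir-467a-1. mir-223 was then at 0.55. These correlations are descriptions over libraries that share lanes and scaling factors.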

How the data were processed

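Per the labels' protocols, small RNA of mouse blood was sequenced after TruSeq small RNA library preparation. What the authors deposited is a matrix of raw counts for microRNA precursors. Per the submitters' processing notes, SAMtools 1.3.1-9, Trimmomatic 0.36 and bcl2fastq 1.8.4 were used. The aligner, counter, build and strand use were not given in the sources used here. Columns were matched to samples by title and grouped by age, and replicate numbers are in accession order and pair no samples.

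Counts were fitted with edgeR 4.0.16 (quasi-likelihood, TMM factors, default filter by age, robust dispersions) in R 4.3.3, all 25 libraries in 1 fit. Two-sided p-values had Benjamini-Hochberg adjustment over all tested precursors, with a threshold of 0.05. The pipeline was tested on simulated data. Alternatives were other scalings, filters, DESeq2 1.42.0, limma 3.58.1 (voom), lane, thinning and leaving out libraries. log2 CPM used a prior count of 2. Of the 1193 precursors 1181 matched RefSeq by name. mir-486a and mir-486b, which overlap on chromosome 8, had near-equal totals of 112785281 and 112714485 counts. Whether reads fitting several hairpins were divided between them or counted for each is not known.

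The precursor and all lists were chosen with earlier results of these data known. Precursors named are mir-335, those within 2 Mb, seed relatives, the 5 most alike on each measure, called members of imprinted lists with mir-296 and mir-127, and leading members of marker lists. Other members (mir-144, mir-23a, mir-27a, mir-126a, mir-126b, mir-222, mir-199a-1, mir-205, mir-122, mir-339, mir-434, mir-410, mir-146a, mir-146b, mir-34a, mir-675, mir-483) were chosen after their values were seen.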

Additional observations from a re-analysis of the deposited data

Results flagged for a closer look

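None of the 5 age groups of mir-335 held a library set apart by Dixon's test at its 95% critical value. Among 25 groups examined, those of mir-335 and its 4 tested neighbours on chromosome 6 at each age, 5 held such a library. Chance gives about 1 in 20 for independent groups, but these share libraries, and mir-182 and mir-183 share a cluster. mir-182 in 24 months replicate 4, at 162 CPM, lay far above the next library at 76.4 CPM. In the same library mir-183 stood at 6.51 CPM, with the next at 3.79 CPM, a borderline case at 0.7101 against the critical value of 0.71. mir-183 in 30 months replicate 3 stood at 9.64 CPM, with the next at 4.14 CPM. These are the 2 smallest libraries, and in both mir-335 was the lowest of its age. mir-29a in 2 months replicate 4 was high at 696 CPM, with the next at 610 CPM, and in 24 months replicate 2 it was low at 500.4 CPM, with the next at 636 CPM.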

How the results depend on the processing

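The direction of mir-335 at each age against 2 months was the same in every alternative run. Its change at 24 months moved to 0.96 with library totals, beyond the spread between libraries, and no other alternative moved a value of mir-335 that far. Leaving out 1 library at a time gave 0.03 to 0.32 at 9 months, 0.16 to 0.39 at 15 months, 0.56 to 0.78 at 24 months, 0.99 to 1.26 at 30 months, and a slope of 0.34 to 0.42 per 10 months. At 9 months the low came without 9 months replicate 3 and the high without 9 months replicate 1. No paired analysis was possible because replicate numbers are in accession order and pair no samples.

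The count of 48 precursors called at 30 against 2 months was 15 with no filter, 21 after thinning, 30 with only the 10 libraries compared and 32 to 56 without 1 library. The 67 called for the trend were 39 with no filter, 38 with a filter of 10 CPM, 9 without the 2-month libraries and 43 to 71 without 1 library, the low in both cases without 2 months replicate 3. With library totals the splits into higher and lower were 51 and 6 at 30 months, against 31 and 17, and 80 and 9 for the trend, against 36 and 31. The lane count of 8 was 12 with library totals, 3 with upper quartile factors, and 3, 2 and 5 without 9 months replicate 1, 15 months replicate 2 and 15 months replicate 4. The adjusted p of mir-335 for lane ran from 0.225 to 0.902. The cause of these shifts was not tested.

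The 3 imprinted calls at 30 months were 1 with a filter of 10 CPM. The 4 imprinted calls for the trend were 8 with library totals, 2 after thinning, and 1 with a filter of 10 CPM or without the 2-month libraries. mir-29b-1, near 0, turned to −0.017 with DESeq2's size factors and with DESeq2, −0.0090 with no filter, −0.035 with lane and after thinning, and −0.060 with limma-voom. Leaving out 1 library at a time gave −0.13 (without 30 months replicate 5) to 0.26 (without 30 months replicate 2). mir-127 turned to 0.011 with library totals. The call of mir-99b ended with lane in the fit, with no filter and without 2 months replicate 3 (edgeR adjusted p = 0.0789, 0.0607 and 0.0562). With 38 counts in the smallest library, depth limits single values of mir-335.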
